A study of Mus musculus with 12 samples.

Results

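The genes described here are 10 members of the Hippo pathway, taken by symbol from a table of 34513 mouse genes: the coactivators Yap1 and Wwtr1 (the gene of TAZ), the DNA-binding partners Tead1, Tead2, Tead3 and Tead4, the kinases Lats1 and Lats2, the junction scaffold Amotl2 and the target gene Ankrd1. Bulk RNA sequencing was carried out on cultures of 3 mouse lines: Melan-A, which does not form tumors, and the tumorigenic melanoma lines B16F0 and B16F10. Each line was sequenced untreated and after SX-682, an antagonist of the chemokine receptors CXCR1 and CXCR2, to see what the compound does to the cells themselves, without the other cell types of a tumor. The 6 groups (Melan-A, B16F0 and B16F10, each untreated or with SX-682) had 2 libraries each, 12 in all. The labels give the controls as receiving no treatment and give neither a vehicle nor how much SX-682 was used or for how long. Each line is a single line, so a difference between lines is a difference between these cultures. All 10 genes were found and passed the filter on low counts, although Ankrd1 reached 10 counts in both libraries in only 4 of the 6 groups.

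In the Hippo pathway, the MST kinases (genes Stk4 and Stk3) activate LATS1 and LATS2, which phosphorylate YAP and TAZ and keep them out of the nucleus. When this phosphorylation is low, YAP and TAZ enter the nucleus and, bound to a TEAD factor, switch on genes for growth, cell shape and adhesion. LATS2 and the angiomotin AMOTL2, which both restrain YAP, are themselves products of YAP and TAZ target genes, so they are read both as regulators and as targets. The activity of YAP and TAZ depends on where the proteins are in the cell, which RNA levels do not show.

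Levels are given as CPM, counts per 1000000 counts of a library after scaling the libraries by TMM (trimmed mean of M-values), and comparisons between genes use CPM per kilobase of exonic length. Library totals were between 48876982 and 85322092 counts, and 3 counts corresponded to between 0.0330 and 0.0623 CPM, a floor that covers counting error only. Differences are log2 fold changes with their standard error (SE) from edgeR's quasi-likelihood test over 18338 genes, with an adjusted p under 0.05 as the threshold. Replicates lay close together (biological coefficient of variation 2.78%), so that small changes passed the threshold. Whether replicates came from separate cultures is not stated in the labels, and the p-values measure only the spread between these libraries. All 8 marker genes of melanocytes examined were above the floor in untreated Melan-A and B16F0 cells, although Tyr, the rate-limiting enzyme of melanin synthesis, was at only 0.826 ± 0.094 CPM (SD, n = 2) in untreated Melan-A against 515 ± 2.12 CPM in untreated B16F0. The marker Pmel was also low in untreated Melan-A, at 8.11 ± 0.83 CPM against 4512 ± 52 in untreated B16F0. Kit, the stem cell factor receptor, had only 4 and 11 counts in untreated Melan-A and no count in untreated B16F10 cells. The highest of the markers in untreated Melan-A was Sox10, at 670 ± 22 CPM.

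Yap1 was higher in untreated B16F10 cells than in both other lines (chr9:7931999-8004596, minus strand, GRCm38, 12 merged exons). Untreated B16F10 cells had 293 and 303 CPM of Yap1 in the 2 libraries, against 189 and 189 in B16F0 and 182 and 183 in Melan-A. B16F10 thus stood above both other lines without overlap, by a log2 difference of 0.66 ± 0.03 (SE) from B16F0 (adjusted p = 1.9e-19) and 0.71 ± 0.03 from Melan-A (adjusted p = 1.2e-20), while the last pair did not differ beyond its spread (0.048 ± 0.026, adjusted p = 0.093).

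Wwtr1, on chr3:57455649-57575910 (minus strand), differed between lines by smaller amounts. Its untreated levels were 127 and 126 CPM in Melan-A, 114 and 116 in B16F0 and 120 and 119 in B16F10. The B16F0 level was lower than that of Melan-A by a log2 difference of -0.14 ± 0.03 (adjusted p = 9.4e-05), and the difference of -0.084 ± 0.029 between B16F10 and Melan-A had an adjusted p of 0.012. This second call was lost without replicate 1 of Melan-A (-0.069) and without replicate 2 of B16F10 (-0.064). With all libraries it was also lost when the filter on low counts was dropped (-0.063, adjusted p = 0.11 in edgeR). Among genes with at least 10 counts in every library it was kept, with a larger difference (-0.15, adjusted p = 2.8e-05). Per exonic length, the level of Yap1 was 0.746 ± 0.010 (SD, n = 2) of that of Wwtr1 in untreated Melan-A. The untreated ratio was 0.850 ± 0.006 for B16F0 and 1.29 ± 0.04 for B16F10. Yap1 thus exceeded Wwtr1 on this scale only for B16F10. This order rests on the length scaling, with 9257 exonic bases for Yap1 and 4779 for Wwtr1, and which isoforms were expressed was not measured. In CPM, untreated Yap1 was above Wwtr1 in every line. The means were 183 against 126 for Melan-A, 189 against 115 for B16F0 and 298 against 119 for B16F10.

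The 2 coactivators moved in opposite directions with SX-682, and each did so in all 3 lines. Yap1 fell in Melan-A to 147 and 149 CPM, a log2 fold change of -0.31 ± 0.03 (adjusted p = 4.1e-11). In B16F0 it fell to 175 and 172 CPM (-0.13 ± 0.03, adjusted p = 0.00018). In B16F10 it fell to 222 and 226 CPM (-0.41 ± 0.03, adjusted p = 3e-14), a level still above that of any Melan-A or B16F0 library. Wwtr1 rose to 148 and 142 CPM in Melan-A (0.20 ± 0.03, adjusted p = 9.7e-07). In B16F0 it rose to 129 and 127 CPM (0.16 ± 0.03, adjusted p = 4.9e-05), and in B16F10 to 129 and 131 CPM (0.13 ± 0.03, adjusted p = 0.00068). For both genes the treated and untreated libraries of a line did not overlap. The ratio of Yap1 to Wwtr1 per exonic length with SX-682 was 0.526 ± 0.020 for Melan-A, 0.698 ± 0.002 for B16F0 and 0.889 ± 0.0002 for B16F10, below the untreated ratio of the same line in every library.

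The size of the Yap1 change differed among the lines (F-test of the interaction in edgeR, adjusted p = 8.5e-07, range of the 3 log2 fold changes 0.28). It was smaller in B16F0 than in Melan-A by 0.18 ± 0.04 (adjusted p = 3e-04), and more negative in B16F10 than in B16F0, with a difference of -0.28 ± 0.04 (adjusted p = 5.2e-07). The difference between B16F10 and Melan-A (-0.11 ± 0.04, adjusted p = 0.026) lost its call without replicate 2 of treated Melan-A, replicate 2 of untreated B16F10 or replicate 1 of treated B16F10 (adjusted p = 0.062, 0.088 and 0.051, with differences of -0.11, -0.095 and -0.11). For Wwtr1 no difference among the lines was found (adjusted p = 0.34, range 0.073), and the difference between the changes in B16F10 and Melan-A was -0.073 ± 0.042.

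**Figure D1:**
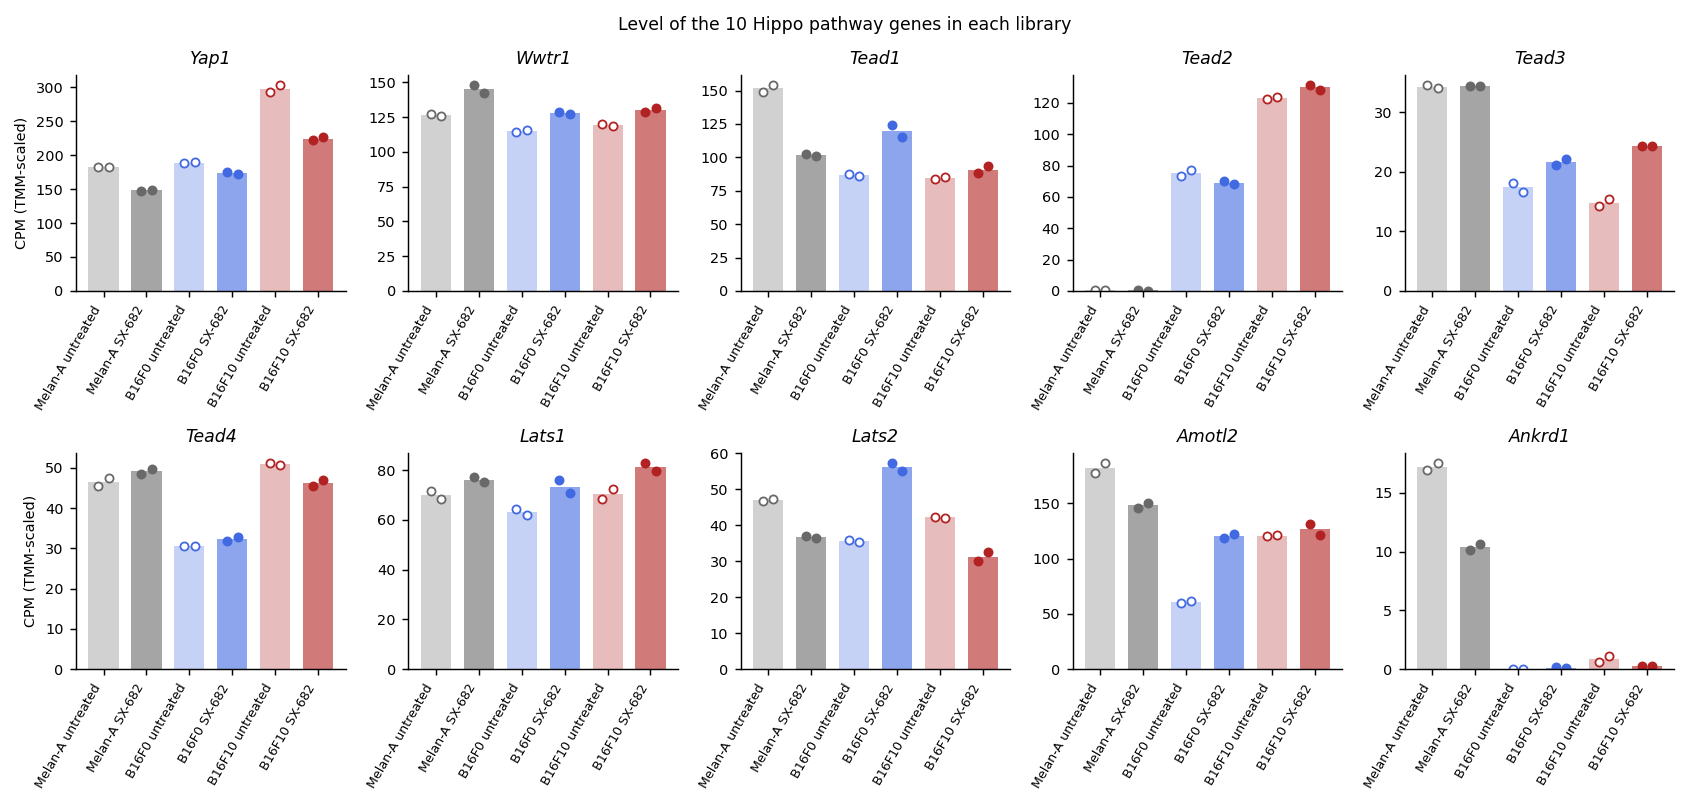
Level of each gene in CPM after TMM scaling (y axis, linear and starting at 0, with its own scale for each gene) in the 6 groups on the x axis; bars are the mean of 2 libraries, points are the libraries, open for untreated and filled for SX-682. Tead2 lay between 68.1 and 132 CPM in every B16 library and at or under 0.363 CPM in every Melan-A library, and Ankrd1 was over 10 CPM in Melan-A libraries alone.

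Among the TEAD genes, Tead2 (chr7:45215753-45233644, plus strand) showed the largest difference between lines. In untreated Melan-A it had 29 and 33 counts, or 0.336 and 0.363 CPM, against 73.1 and 77.0 CPM in B16F0 and 122 and 124 CPM in B16F10. The lines did not overlap, and the log2 differences from Melan-A were 7.74 ± 0.08 in B16F0 (213-fold, adjusted p = 1.4e-34) and 8.45 ± 0.08 in B16F10 (350-fold, adjusted p = 5.1e-36). Tead2 was also higher in B16F10 than in B16F0 by 0.71 ± 0.04 (adjusted p = 9.2e-17). The promoter of Tead2, shown because its gene separated Melan-A from both B16 lines, is the RefSeq window from 250 bases before to 50 bases after the start (GRCm38.p6, chr7:45215542-45215841, plus strand). It holds 13 CpG dinucleotides at 61.3% G and C, where the median of 32851 such windows is 7 CpG and 52.7%, and it has no match to the TEAD motif GGAATG on either strand:
Tead2: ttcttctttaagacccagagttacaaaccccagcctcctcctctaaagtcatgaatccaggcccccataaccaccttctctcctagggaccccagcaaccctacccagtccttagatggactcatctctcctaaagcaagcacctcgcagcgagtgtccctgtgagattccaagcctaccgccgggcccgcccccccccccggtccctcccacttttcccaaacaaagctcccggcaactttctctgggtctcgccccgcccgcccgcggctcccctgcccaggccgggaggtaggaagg

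Tead1 (chr7:112679318-112906807, plus strand) and Tead3 (chr17:28331671-28350817, minus strand) had the opposite order, with the highest level in Melan-A. Untreated Tead1 was at 149 and 154 CPM in Melan-A, 87.9 and 85.8 in B16F0 and 83.9 and 85.1 in B16F10. Both B16 lines lay below Melan-A (-0.80 ± 0.03 and -0.84 ± 0.04, adjusted p = 7.3e-19 and 3.2e-19) and did not differ from each other beyond their spread (-0.040 ± 0.036, adjusted p = 0.37). Untreated Tead3 was at 34.6 and 34.0 CPM in Melan-A, 18.1 and 16.7 in B16F0 and 14.2 and 15.4 in B16F10, lower than Melan-A by -0.98 ± 0.06 and -1.21 ± 0.06 (adjusted p = 1.1e-15 and 1.5e-17). Between the B16 lines Tead3 was lower in B16F10 (-0.23 ± 0.06, adjusted p = 0.002), a call lost without replicate 1 of untreated B16F0 (-0.16, adjusted p = 0.077) or replicate 1 of untreated B16F10 (-0.17, adjusted p = 0.065).

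Tead4 (chr6:128224288-128300823, minus strand) was lowest in B16F0, with 30.6 and 30.5 CPM untreated against 45.4 and 47.5 in Melan-A and 51.2 and 50.6 in B16F10. B16F0 differed from Melan-A by -0.60 ± 0.04 (adjusted p = 2e-13) and B16F10 from B16F0 by 0.73 ± 0.04 (adjusted p = 5.8e-15). The small excess of B16F10 over Melan-A (0.13 ± 0.04, adjusted p = 0.0061) passed in edgeR and not in DESeq2 (0.10, adjusted p = 0.06). It also did not pass among genes with at least 10 counts in every library (0.067, adjusted p = 0.14) or without replicate 1 of untreated Melan-A (0.11, adjusted p = 0.066).

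Per exonic length, the 4 TEAD genes together amounted to 29.3 ± 0.6 CPM per kilobase (SD, n = 2) for untreated Melan-A, 33.2 ± 0.3 for B16F0 and 48.3 ± 0.3 for B16F10. In Melan-A, Tead4 made up 44.1 ± 0.5% of this sum, Tead1 38.2 ± 0.1%, Tead3 17.5 ± 0.6% and Tead2 0.249 ± 0.009%. In B16F0 Tead2 was the largest share at 47.2 ± 1.3%, ahead of Tead4 at 25.6 ± 0.3% and Tead1 at 19.3 ± 0.5%. In B16F10 Tead2 reached 53.2 ± 0.1%, Tead4 29.3 ± 0.4% and Tead1 12.9 ± 0.05%. On this scale the leading TEAD gene was therefore Tead4 in Melan-A and Tead2 in both B16 lines. The order in Melan-A and B16F0 rests on the length scaling, and so does the higher TEAD sum of untreated B16F0 than of untreated Melan-A. In CPM, Tead1 was above Tead4 in untreated Melan-A (152 against 46.4) and above Tead2 in untreated B16F0 (86.8 against 75.0). The lengths are those of all annotated exons, 13570 bases for Tead1 and 3598 for Tead4, and which isoforms were expressed was not measured.

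**Figure D2:**
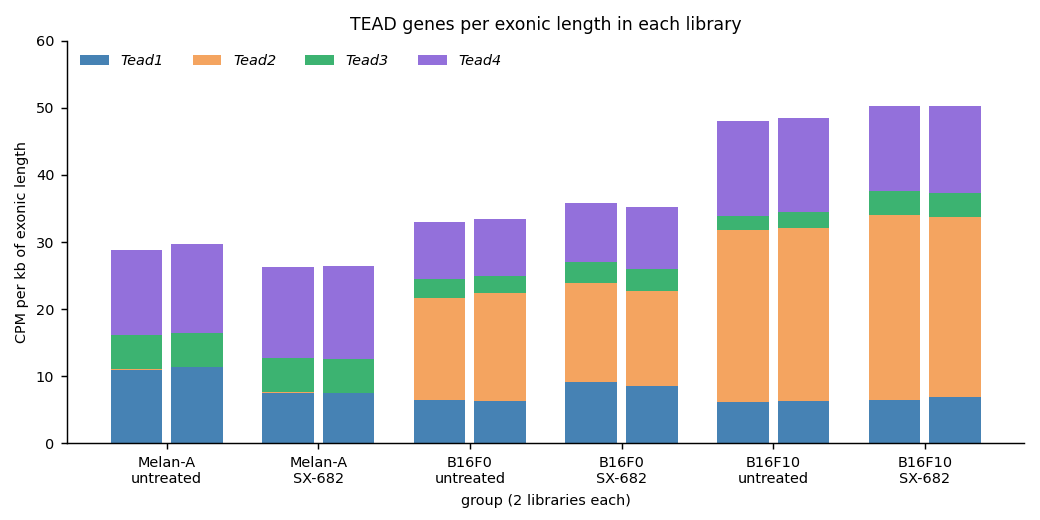
Level of the 4 TEAD genes in CPM per kilobase of exonic length (y axis, stacked) in each of the 12 libraries, 2 per group on the x axis. The Tead2 segment is 0.249% of the stack in untreated Melan-A, where it cannot be seen, and 47.2% and 53.2% of it in untreated B16F0 and B16F10.

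With SX-682, Tead1 changed in opposite directions in Melan-A and B16F0. It fell in Melan-A to 103 and 101 CPM, a log2 fold change of -0.57 ± 0.03 (adjusted p = 1.5e-14), and rose in B16F0 to 124 and 115 CPM (0.47 ± 0.04, adjusted p = 3.3e-12). In neither line did the treated and untreated libraries overlap, and the difference between both changes was 1.04 ± 0.05 (adjusted p = 2.5e-16). In B16F10 Tead1 was at 88.3 and 93.2 CPM with SX-682, a rise of 0.10 ± 0.04 (adjusted p = 0.02). This small rise was no longer called without replicate 1 (0.093, adjusted p = 0.11) or replicate 2 (0.11, adjusted p = 0.066) of the untreated libraries, or without replicate 2 of the treated libraries (0.066, adjusted p = 0.26). The changes in the 3 lines differed (F-test, adjusted p = 5.9e-16, range 1.04).

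Tead3 rose with SX-682 in both B16 lines. In B16F10 it reached 24.3 CPM in both libraries (0.71 ± 0.06, adjusted p = 4e-11), and in B16F0 it reached 21.2 and 22.2 CPM (0.32 ± 0.06, adjusted p = 6.3e-05). Melan-A stayed at 34.3 and 34.4 CPM, within the spread of its untreated libraries (0.0020 ± 0.0532, adjusted p = 0.98). The rise in B16F10 was larger than that in B16F0 by 0.40 ± 0.09 (adjusted p = 0.00068), and the 3 changes differed (adjusted p = 1.1e-07, range 0.71).

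Changes of Tead2 and Tead4 with SX-682 were small. Tead2 in B16F0 was at 70.3 and 68.1 CPM, a fall of -0.12 ± 0.04 (adjusted p = 0.012) that DESeq2 did not call (-0.10, adjusted p = 0.053) and that was lost without replicate 2 of the untreated (-0.080, adjusted p = 0.18) or of the treated libraries (-0.093, adjusted p = 0.097). In B16F10 Tead2 was at 132 and 128 CPM (0.078 ± 0.035, adjusted p = 0.068), and in Melan-A it had 24 and 18 counts with SX-682 (-0.28 ± 0.27, adjusted p = 0.44), too few to show a change of this size. Tead4 fell in B16F10 to 45.4 and 46.9 CPM (-0.14 ± 0.04, adjusted p = 0.0071), a call lost without replicate 1 of the treated libraries (-0.13, adjusted p = 0.064). Its levels of 48.5 and 49.8 CPM in Melan-A (0.081 ± 0.042, adjusted p = 0.11) and 31.9 and 32.9 CPM in B16F0 (0.082 ± 0.047, adjusted p = 0.15) did not pass. The changes differed among the lines for Tead2 (adjusted p = 0.007, range 0.36) and for Tead4 (adjusted p = 0.0034, range 0.22). In treated cells Tead2 made up 0.229 ± 0.056% of the TEAD sum per length for Melan-A, 40.7 ± 0.3% for B16F0 and 54.0 ± 1.0% for B16F10.

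Of the 2 kinases that phosphorylate YAP and TAZ, Lats1 (chr10:7681214-7716460, plus strand) rose slightly in each line. It went from 71.5 and 68.5 CPM to 77.1 and 75.1 CPM in Melan-A (0.12 ± 0.04, adjusted p = 0.011), from 64.5 and 62.1 to 76.0 and 70.8 CPM in B16F0 (0.21 ± 0.04, adjusted p = 5.1e-05), and from 68.3 and 72.5 to 82.8 and 79.8 CPM in B16F10 (0.21 ± 0.04, adjusted p = 6.3e-05). No untreated library overlapped the treated libraries of its line. The call in Melan-A was lost without replicate 2 of the untreated (0.094, adjusted p = 0.1) or replicate 1 of the treated libraries (0.11, adjusted p = 0.062). No difference among the 3 changes was found (adjusted p = 0.3, range 0.094). Between untreated lines, Lats1 was lower in B16F0 than in Melan-A (-0.14 ± 0.04, adjusted p = 0.0018) and higher in B16F10 than in B16F0 (0.15 ± 0.04, adjusted p = 0.0016), while B16F10 and Melan-A did not differ beyond their spread (0.0090 ± 0.0398, adjusted p = 0.85), and the sign of this difference turned with RLE scaling (-0.021).

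Lats2 (chr14:57689662-57758388, minus strand) did not share this pattern and moved in different directions in the B16 lines. In B16F0 it rose from 36.0 and 35.4 CPM to 57.2 and 55.0 CPM, a log2 fold change of 0.65 ± 0.04 (adjusted p = 2.8e-13). In B16F10 it fell from 42.3 and 42.0 CPM to 30.1 and 32.5 CPM (-0.43 ± 0.05, adjusted p = 4e-09), and in Melan-A from 46.7 and 47.2 CPM to 37.0 and 36.5 CPM (-0.35 ± 0.04, adjusted p = 5.8e-08). Untreated and treated libraries were apart in every line, and treated B16F0 held the highest Lats2 level of all groups. The change in B16F10 differed from that in B16F0 by -1.09 ± 0.06 (adjusted p = 1.2e-13), and the 3 changes differed (adjusted p = 8.7e-15, range 1.09). Untreated Lats2 was lower than in Melan-A by -0.39 ± 0.04 in B16F0 (adjusted p = 2.9e-09) and by -0.16 ± 0.04 in B16F10 (adjusted p = 0.0023), and higher in B16F10 than in B16F0 by 0.24 ± 0.05 (adjusted p = 3.6e-05). In the annotation, 42.4% of the exonic bases of Lats2 (2955 bases) are shared with the overlapping gene Gm49361 on the same strand, which had 1 count in all 12 libraries together. How reads on shared bases were counted is not given in the sources used here, so the level of Lats2 per length is uncertain and is not compared with that of Lats1.

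**Figure D3:**
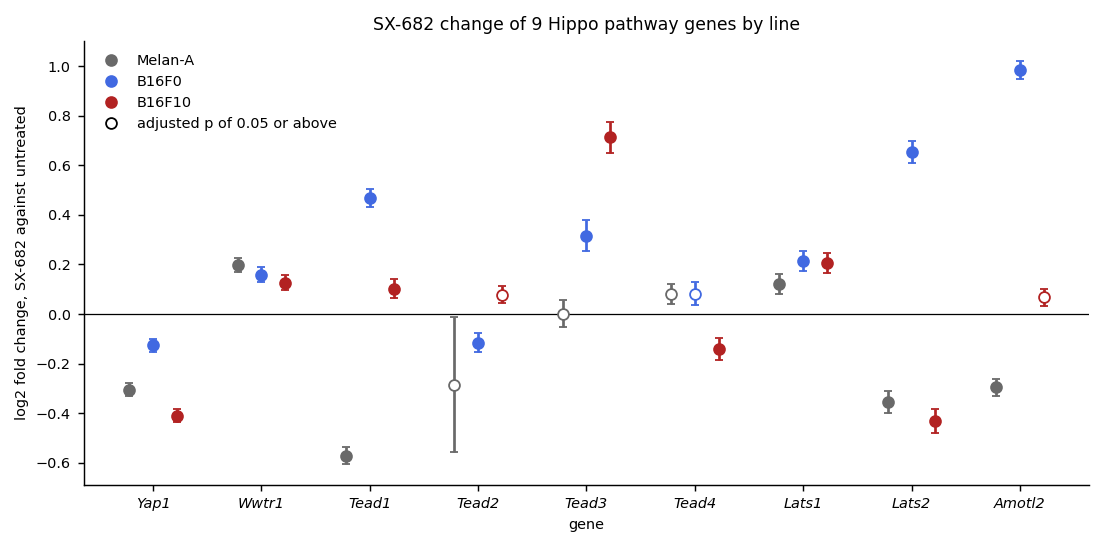
Log2 fold change of SX-682 against untreated cells (y axis, points with SE bars) for 9 of the 10 genes on the x axis in Melan-A, B16F0 and B16F10; open points have an adjusted p of 0.05 or above. Yap1 is below 0 and Wwtr1 and Lats1 are above 0 in all 3 lines, while Tead1, Lats2 and Amotl2 are below 0 in Melan-A and above 0 in B16F0; Ankrd1 is left out because B16F0 had too few counts for a fitted fold change.

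Amotl2 (chr9:102716672-102733418, plus strand), the angiomotin that binds YAP at cell junctions, rose in B16F0 by the largest amount of the 9 genes plotted. It went from 60.1 and 61.9 CPM to 119 and 123 CPM in B16F0, a 1.98-fold rise (0.98 ± 0.04, adjusted p = 2.1e-19). In Melan-A it fell from 177 and 186 CPM to 146 and 150 CPM (-0.30 ± 0.03, adjusted p = 9.7e-09). In B16F10 it was at 120 and 121 CPM untreated and 131 and 122 CPM with SX-682 (0.067 ± 0.035, adjusted p = 0.12), a difference that was called only when replicate 2 of the treated libraries was left out (0.12, adjusted p = 0.012). The treated B16F0 level thus lay beside that of untreated B16F10, from which untreated B16F0 had differed by 0.99 ± 0.04 (adjusted p = 4.5e-20). Both B16 lines were below Melan-A untreated, by -1.58 ± 0.04 in B16F0 (adjusted p = 5.5e-26) and -0.59 ± 0.03 in B16F10 (adjusted p = 9.9e-16). The change in B16F0 differed from that in Melan-A by 1.28 ± 0.05 (adjusted p = 2.3e-18), and the 3 changes differed (adjusted p = 4.9e-18, range 1.28).

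Ankrd1 (chr19:36111961-36120099, minus strand), which encodes an ankyrin repeat protein and is a standard readout of YAP and TAZ, was close to absent from B16F0. Untreated Melan-A had 1460 and 1593 counts, or 16.9 and 17.5 CPM. Untreated B16F10 had 37 and 70 counts, or 0.612 and 1.10 CPM, lower than Melan-A by -4.32 ± 0.17 (adjusted p = 6.6e-20). Untreated B16F0 had 0 and 3 counts, at or under the floor of 3 counts. The ratio of its scaled counts to those of Melan-A was 0.00122 (exact 95% counting interval 0.000252 to 0.00358), and that of B16F10 to B16F0 was 40.8 (13.6 to 201). With SX-682, Ankrd1 fell in Melan-A to 722 and 802 counts, or 10.1 and 10.7 CPM (-0.73 ± 0.12, adjusted p = 8.5e-06). In B16F10 it fell to 17 and 15 counts, or 0.280 and 0.256 CPM (-1.67 ± 0.32, adjusted p = 5.7e-05), without overlap between the groups in either line.

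In B16F0, 10 and 4 counts of Ankrd1 were found with SX-682, a ratio to the untreated libraries of 5.82 (1.62 to 31.6, counting error only). This change passed the threshold (adjusted p = 0.02 in edgeR), and did not without replicate 1 of either the untreated or the treated libraries (adjusted p = 0.22 in both cases). The fitted change rests on 3 untreated counts, which all came from replicate 2, and moves from 2.44 to 1.59 when the prior count is raised to 2, to 1.42 and 1.89 without those libraries and to 6.10 without replicate 2 of the untreated libraries, so no fold is read from it. An F-test found a difference among the lines (adjusted p = 0.0011). The change in B16F10 was more negative than that in Melan-A (-0.94 ± 0.35, adjusted p = 0.039), a call that each of 5 single libraries could remove when left out, with the value nearest to 0 (-0.47, adjusted p = 0.44) without replicate 2 of untreated B16F10.

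The promoters of Ankrd1, Amotl2 and Lats2 are shown because these genes are both members here and in the list of YAP and TAZ targets, and because their changes with SX-682 went in different directions between the lines. Capitals mark the TEAD motif GGAATG, or CATTCC where it lies on the other strand. The windows run from 250 bases before to 50 bases after the start in RefSeq (GRCm38.p6), at chr19:36119795-36120094 for Ankrd1 (minus strand), chr9:102717554-102717853 for Amotl2 (plus strand) and chr14:57746074-57746373 for Lats2 (minus strand, the first of 2 listed starts):
Ankrd1: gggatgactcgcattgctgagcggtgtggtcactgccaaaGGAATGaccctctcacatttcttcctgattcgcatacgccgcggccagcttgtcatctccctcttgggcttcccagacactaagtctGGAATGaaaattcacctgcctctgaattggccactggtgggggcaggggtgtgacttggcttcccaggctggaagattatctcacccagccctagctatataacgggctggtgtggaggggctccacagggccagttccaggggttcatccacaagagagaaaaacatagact
Amotl2: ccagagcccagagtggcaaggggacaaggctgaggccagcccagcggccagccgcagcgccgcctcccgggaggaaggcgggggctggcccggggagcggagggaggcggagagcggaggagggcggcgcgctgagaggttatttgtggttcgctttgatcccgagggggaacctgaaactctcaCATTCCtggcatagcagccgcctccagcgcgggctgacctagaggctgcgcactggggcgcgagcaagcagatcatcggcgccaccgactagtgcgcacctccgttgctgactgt
Lats2: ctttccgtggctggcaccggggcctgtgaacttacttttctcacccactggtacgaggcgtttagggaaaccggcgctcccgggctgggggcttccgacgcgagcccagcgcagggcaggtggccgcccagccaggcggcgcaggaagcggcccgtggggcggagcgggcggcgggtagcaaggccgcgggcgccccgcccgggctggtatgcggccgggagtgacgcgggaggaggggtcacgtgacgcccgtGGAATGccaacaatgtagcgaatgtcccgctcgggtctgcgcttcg

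In Ankrd1 the motif lies 210 and 123 bases before the start, in Amotl2 65 bases before it, and in Lats2 it begins 4 bases past it. The window of the other listed Lats2 start (chr14:57734369-57734668) is not shown. It has no match to the motif and holds 4 CpG dinucleotides at 42.7% G and C. Of all 32851 promoter windows of this length, 4817 (14.7%) hold the motif on either strand. Among the members, 8 had a promoter entry and 6 of these held the motif in at least 1 listed promoter, against 16.6% of all genes with an entry. These were Ankrd1, Amotl2, Lats2, Yap1, Wwtr1 and Tead3, and the motif was not in the windows of Tead2 and Lats1. A match describes the letters of the window and is not a measured site.

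Counted over the members, untreated B16F0 was higher than untreated Melan-A in 1 gene and lower in 8, where 35.3% of all genes tested were higher and 40.6% lower. Untreated B16F10 was higher than Melan-A in 3 members and lower in 6 (33.4% and 40.8% of all genes), and higher than B16F0 in 7 and lower in 1 (30.8% and 31.2%). The only member lower in B16F10 than in B16F0 was Tead3, and that count was 0 without replicate 1 of either group. With SX-682, 2 members rose and 5 fell in Melan-A (23.4% and 24.7% of all genes), 7 rose and 2 fell in B16F0 (25.1% and 25.0%), and 4 rose and 4 fell in B16F10 (25.5% and 25.3%). The median log2 fold change of the members with SX-682 was -0.29 for Melan-A, 0.27 for B16F0 and 0.073 for B16F10, where the median of all genes tested was 0 in each line. Several of these counts hold calls that were lost without single libraries, as above. Among the rises these were Lats1 in Melan-A, Ankrd1 in B16F0 and Tead1 in B16F10. Among the falls they were Tead2 in B16F0 and Tead4 in B16F10. Between untreated B16F10 and Melan-A they were Tead4, which was higher, and Wwtr1, which was lower.

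Wwtr1 and Lats1 rose in all 3 lines (11.3% of all genes did), Yap1 fell in all 3 (11.7% of all genes did), and Tead1 and Lats2 were called in all 3 with unlike directions (4.93% of all genes were). Ankrd1 was also called in each line with unlike directions, but its call in B16F0 rests on 14 treated against 3 untreated counts and was lost without single libraries. The SX-682 change differed among the lines in 8 of the 10 members, where 47.4% of all genes tested did. In pairs, 6 members differed between B16F0 and Melan-A (34.4% of all genes), 6 between B16F10 and Melan-A (33.8%) and 8 between B16F10 and B16F0 (30.3%). Some of these calls were lost without single libraries: Ankrd1 in both pairs with Melan-A, Yap1 between B16F10 and Melan-A, and Tead2 between B16F10 and B16F0. Between B16F10 and Melan-A, leaving out a single library could remove both Yap1 and Ankrd1, which brings that count nearer to the share of all genes. Each untreated pair of libraries is the reference for its line's SX-682 change and also enters the comparison of untreated lines, so these results are not independent of each other.

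The other genes of the pathway were read from a list of 30 regulators, of which 28 were tested. The list is not of upstream genes alone, since 4 of the 30 are TEAD cofactors, 2 of which were tested. In Melan-A 22 of the 28 regulators fell and 1 rose with SX-682 (median -0.26), where 24.7% of all genes tested fell and 23.4% rose. In B16F0 12 fell and 9 rose (median -0.050), beside 25.0% and 25.1% of all genes, and in B16F10 17 fell and 5 rose (median -0.13), beside 25.3% and 25.5%. Of the 12 core and upstream kinases and adaptors of the list, 10 fell and 1 rose in Melan-A cells, 7 fell and 5 rose in B16F0 cells, and 8 fell and 3 rose in B16F10 cells. Stk3, which encodes the kinase MST2, rose by 0.34 ± 0.04 in Melan-A (adjusted p = 3.1e-08), the only rise there, by 0.26 ± 0.04 in B16F0 (adjusted p = 4.1e-06) and by 0.41 ± 0.04 in B16F10 (adjusted p = 1.4e-09). Stk4, which encodes its paralog MST1, fell in every line, at -0.40 ± 0.03 in Melan-A (adjusted p = 5.3e-11), -0.24 ± 0.03 in B16F0 (adjusted p = 3.8e-07) and -0.61 ± 0.03 in B16F10 (adjusted p = 1e-15). The 2 MST genes thus moved in opposite directions in each of the 3 lines.

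The largest fall among the regulators in B16F0 was that of Taok2, a kinase that phosphorylates the MST kinases, at -1.45 ± 0.04 (adjusted p = 5.6e-23), followed by the LATS coactivator Mob1b at -0.64 ± 0.05 (adjusted p = 3.4e-12). Both also fell in the other lines, Taok2 by -0.49 ± 0.03 in Melan-A and -0.43 ± 0.04 in B16F10 (adjusted p = 6.1e-13 and 9e-12) and Mob1b by -0.65 ± 0.05 and -0.42 ± 0.05 (adjusted p = 3.4e-13 and 3.7e-09). Their paralogs Taok1 and Mob1a fell in Melan-A, and in B16F10 Taok1 rose (0.24 ± 0.03, adjusted p = 1.1e-07) and Mob1a fell. In B16F0 Taok1 (0.33 ± 0.03, adjusted p = 2.8e-10) and Mob1a (0.095 ± 0.028, adjusted p = 0.0052) rose, and Taok3 fell (-0.21 ± 0.05, adjusted p = 0.00055). The largest rises there were the atypical cadherin Fat1 (0.55 ± 0.03, adjusted p = 1.2e-16) and the LIM protein Wtip (0.37 ± 0.05, adjusted p = 1.1e-07), while in B16F10 both fell (-0.15 ± 0.03 and -0.19 ± 0.05, adjusted p = 3.9e-05 and 0.00086). In Melan-A Fat1 also fell (-0.26 ± 0.03, adjusted p = 1.2e-09), and the value of Wtip was 0.099 ± 0.047 (adjusted p = 0.09). In Melan-A the largest falls were the TEAD cofactor Vgll3 (-1.11 ± 0.03, adjusted p = 1.8e-24) and the LIM protein Ajuba, which binds LATS kinases (-0.71 ± 0.03, adjusted p = 5.1e-17). In B16F10 both fell by less (-0.13 ± 0.02 and -0.37 ± 0.03, adjusted p = 5.7e-05 and 6.3e-11), and in B16F0 Ajuba rose (0.16 ± 0.03, adjusted p = 0.00014) and Vgll3 was at 0.041 ± 0.025 (adjusted p = 0.18). The FERM protein Frmd6 fell in B16F10 (-0.72 ± 0.05, adjusted p = 5.5e-14), in Melan-A (-0.33 ± 0.04, adjusted p = 8.1e-09) and in B16F0 (-0.18 ± 0.04, adjusted p = 0.00098). In B16F10 the striatin Strn4, a subunit of the phosphatase complex that acts on MST kinases, rose (0.25 ± 0.03, adjusted p = 6.5e-08), and its values in Melan-A and B16F0 did not pass (-0.034 ± 0.031 and -0.017 ± 0.032, adjusted p = 0.41 and 0.71).

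A list of 22 YAP and TAZ target genes, of which 21 were tested and 3 are members (Amotl2, Lats2 and Ankrd1), was lower in untreated B16 lines than in Melan-A in most genes. In B16F0 16 were lower and 3 higher (median -1.58), where 40.6% of all genes tested were lower and 35.3% higher. In B16F10 17 were lower and 4 higher (median -0.98), beside 40.8% and 33.4% of all genes, and the medians of all genes tested were -0.060 and -0.10. B16F10 was above B16F0 in 13 of the targets and below it in 6 (median 0.24), beside 30.8% and 31.2% of all genes. With SX-682, 13 targets fell and 4 rose in Melan-A (median -0.24), 12 rose and 4 fell in B16F0 (0.18, or 0.40 leaving out 2 genes with no count in that line), and 10 rose and 6 fell in B16F10 (0.067, or 0.10 leaving out 2 genes with no fold to give). Of all genes tested, between 23.4% and 25.5% rose and between 24.7% and 25.3% fell in each line. The falls in B16F0 numbered 2 without replicate 1 of the untreated libraries. Without the 3 members, 10 targets fell and 4 rose in Melan-A, 9 rose and 4 fell in B16F0 and 10 rose and 4 fell in B16F10, of 18 tested.

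The matricellular target Ccn1 (CYR61) had 450 ± 0.367 CPM (SD, n = 2) in untreated Melan-A, 138 ± 0.428 in B16F0 and 145 ± 1.46 in B16F10. It rose in B16F0 to 923 ± 3.22 CPM (2.74 ± 0.02, adjusted p = 1.2e-34), above any other group, and in B16F10 to 259 ± 4.48 CPM (0.84 ± 0.02, adjusted p = 1.3e-22). In Melan-A it fell to 410 ± 0.0778 CPM (-0.13 ± 0.02, adjusted p = 7.4e-06). Its relative Ccn2 (CTGF) followed the direction of Lats2 in each line, with a fall of -1.63 ± 0.07 in Melan-A (adjusted p = 1.4e-18), a rise of 0.94 ± 0.09 in B16F0 (adjusted p = 2e-10) and a fall of -0.81 ± 0.07 in B16F10 (adjusted p = 6.2e-11).

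Gadd45a, a stress and DNA damage gene that also stands on the target list, rose in all 3 lines, by 1.21 ± 0.03 in Melan-A (adjusted p = 1.6e-23), 2.38 ± 0.03 in B16F0 (adjusted p = 1e-29) and 2.84 ± 0.03 in B16F10 (adjusted p = 5e-32). Igfbp3, which encodes a binding protein of insulin-like growth factors, rose in Melan-A (1.16 ± 0.05, adjusted p = 8.7e-17) and B16F10 (0.46 ± 0.10, adjusted p = 0.00025) and had no count in B16F0. Among the falls, Fjx1, the four-jointed homolog, fell in Melan-A (-0.58 ± 0.13, adjusted p = 0.00031) and in B16F0 (-0.43 ± 0.14, adjusted p = 0.0096), and its value in B16F10 was -0.25 ± 0.15 (adjusted p = 0.17). F3, the tissue factor gene, fell in B16F0 (-0.14 ± 0.05, adjusted p = 0.0096) and Melan-A (-0.33 ± 0.04, adjusted p = 6.3e-09) and rose in B16F10 (0.18 ± 0.05, adjusted p = 0.0021). Dock5, a Rac exchange factor, fell in B16F10 (-0.50 ± 0.05, adjusted p = 7.7e-10) and Melan-A (-0.49 ± 0.04, adjusted p = 1.6e-11), with 0.035 ± 0.042 in B16F0 (adjusted p = 0.53).

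**Figure D4:**
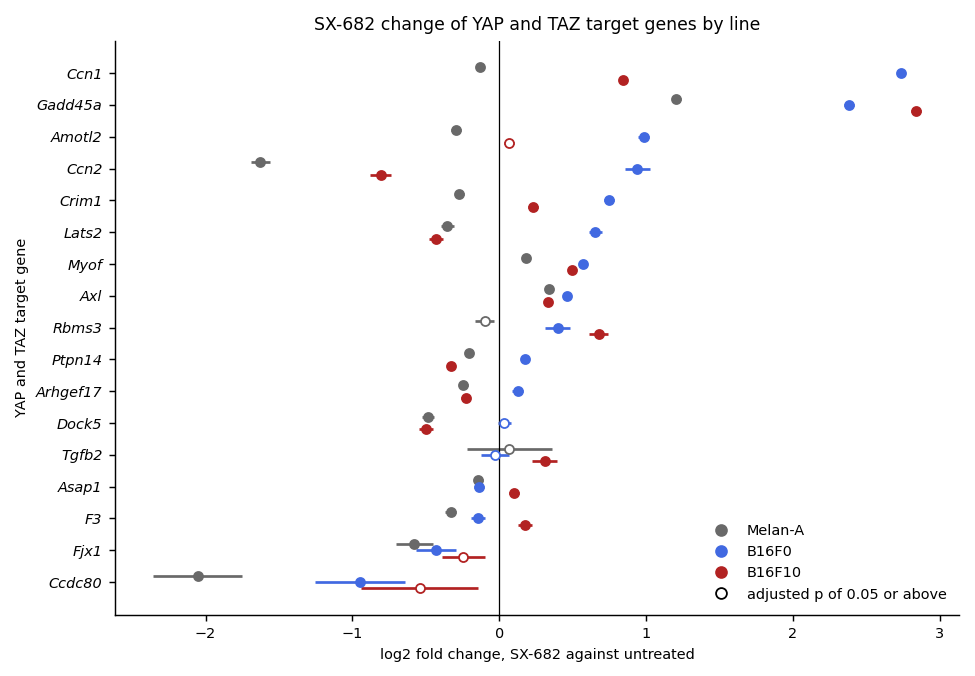
Log2 fold change of SX-682 against untreated cells (x axis, points with SE bars) for 17 target genes with at least 10 counts in every library (y axis, ordered by their change in B16F0) in the 3 lines; open points have an adjusted p of 0.05 or above. Ccn1, Amotl2, Ccn2, Crim1 and Lats2 are above 0 in B16F0 and below 0 in Melan-A, and Gadd45a is above 0 in all 3 lines. Rbms3, Ptpn14, Arhgef17 and Dock5 are also above 0 in B16F0, by less, and below 0 in Melan-A, with open points for Rbms3 in Melan-A and Dock5 in B16F0.

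Markers of the melanocyte lineage differed between the lines, and their sum was lower with SX-682 in both B16 lines and not in Melan-A. The summed level of 8 such markers was between 1344 and 1374 CPM in untreated Melan-A, 18584 and 18668 in untreated B16F0 and 24442 and 24471 in untreated B16F10, and with SX-682 between 1347 and 1355, 15772 and 15961, and 14947 and 15188 CPM. Within the sum single markers of Melan-A moved both ways, with rises of the pigment enzyme gene Tyrp1 (0.42 ± 0.02, adjusted p = 2.6e-18) and Sox10 (0.16 ± 0.03, adjusted p = 4.7e-06) and falls of Tyr (-1.55 ± 0.25, adjusted p = 5e-06), Dct (-0.39 ± 0.02, adjusted p = 3.8e-18), Mitf (-0.36 ± 0.03, adjusted p = 2e-11) and Mlana (-0.20 ± 0.03, adjusted p = 5.9e-07). Kit was called higher as well (adjusted p = 0.044), on overlapping counts of 4 to 11 untreated and 8 to 25 with SX-682, and Pmel did not pass (-0.021 ± 0.048, adjusted p = 0.79). Mitf, the master regulator of the lineage, also fell in B16F0 (-2.11 ± 0.03, adjusted p = 2.2e-29) and B16F10 (-1.14 ± 0.03, adjusted p = 6.2e-24). Not every marker had the untreated order of the sum. Untreated Sox10 was lower than in Melan-A by -0.57 ± 0.03 in B16F0 (adjusted p = 3e-18) and -0.19 ± 0.03 in B16F10 (adjusted p = 8.5e-08). Kit was higher than in Melan-A in untreated B16F0 and lower in untreated B16F10, and the other markers were higher in both B16 lines. Of 5 fibroblast markers, all were above the floor in Melan-A, led by Col3a1 and Col1a1, with a sum between 107 and 108 CPM untreated against 16.1 to 16.7 in B16F0 and 8.43 to 9.72 in B16F10. Single fibroblast markers differed from this order. Untreated Col1a2 was higher than in Melan-A in B16F0 (1.62 ± 0.24, adjusted p = 7.9e-07) and B16F10 (2.75 ± 0.24, adjusted p = 1.3e-11). Untreated Pdgfra was higher in B16F0 (1.02 ± 0.13, adjusted p = 3.1e-08) and lower in B16F10 (-1.58 ± 0.16, adjusted p = 3.9e-10). Col1a1, Col3a1 and Dcn were lower in both B16 lines. With SX-682 the fibroblast sum was between 91.9 and 93.7 CPM in Melan-A, 16.3 and 16.7 in B16F0 and 8.56 and 9.27 in B16F10. Keratinocyte markers (5) summed to between 5.43 and 5.93 CPM in untreated Melan-A, to between 3.24 and 3.45 CPM there with SX-682, to 0 in untreated B16F0 and to at most 0.759 CPM in any other library. Both sums were thus lower in the treated than in the untreated Melan-A libraries, without overlap. Col3a1 (-0.39 ± 0.06, adjusted p = 4.5e-06), Col1a2 (-1.51 ± 0.33, adjusted p = 0.00032), Dcn (-1.36 ± 0.31, adjusted p = 0.00053) and Trp63 (-1.66 ± 0.34, adjusted p = 2e-04) fell there. Col1a1 (-0.012 ± 0.056, adjusted p = 0.89), Pdgfra (0.19 ± 0.13, adjusted p = 0.25), Krt10 (-0.43 ± 0.24, adjusted p = 0.16) and Krt14 (0.31 ± 0.65, adjusted p = 0.74) did not pass. Leukocyte markers (4) summed to at most 2.54 CPM in any library. In bulk RNA a lower share of cells with a transcript and less of it per cell cannot be told apart, and the part of these markers in the differences above was not tested.

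Genes whose levels followed those of a member most closely over the 12 libraries were sought among those with a mean log2 CPM of at least 3. For Yap1 these were Trio (Pearson r = 0.992), Ndufa4 (0.989) and Vcp (0.986), for Wwtr1 Spsb2 (0.984), Tab1 (0.979) and Pim3 (0.975), and for Ankrd1 Kremen1 (0.997), Itpkb (0.995) and D630045J12Rik (0.995). The 12 libraries share their groups in pairs, so these values describe the pattern over 6 groups and carry no test. Levels entered as log2 of CPM plus 0.5. For Ankrd1 the pattern is mostly that of Melan-A against B16. Its group means were 17.2 CPM in untreated and 10.4 in treated Melan-A, and at most 0.854 in the B16 groups.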

How the data were processed

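RNA of 12 libraries (6 groups of 2) was measured by bulk RNA sequencing. The authors deposited raw read counts per gene, without normalization, for 34513 genes with GRCm38 coordinates. The submitters' processing notes name cutadapt, STAR, DESeq2 and mm10, and the counting program and its use of strand are not given in the sources used here. Each column carries the name of its library, and groups come from the sample labels.

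Counts were analysed in R 4.3.3 with edgeR 4.0.16: filterByExpr retained 18338 genes, libraries were scaled by TMM, fold changes used a prior count of 0.125, and all libraries entered 1 quasi-likelihood fit with 6 residual degrees of freedom and 21.9 prior degrees of freedom. P-values were adjusted over all genes by Benjamini-Hochberg with a threshold of 0.05, and the SE was taken from the F statistic. With 2 libraries per group an exact permutation test cannot reach the threshold within a line, and the fit therefore borrows its error from the spread across genes and groups. Totals had a median of 66943833 counts. Replicates differed by more than sampling noise (chi-square per gene 2.87 to 5.25). Same-numbered libraries of a line did not deviate together (correlation -0.01 to 0.05), so no pairing was used. No use of molecular identifiers is described, and intervals express counting error alone.

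The members and gene lists were chosen with earlier results of these data known. Genes outside the members were named by a rule. Per list and line it took the 2 largest rises and 2 largest falls past the threshold. Only genes with a mean log2 CPM of at least 1 entered. The marker genes, the paralogs Taok1, Taok3 and Mob1a and the values of named genes in further lines were added after their values were seen. Alternatives were DESeq2 1.42.0, a replicate block, RLE scaling, a threshold of 0.01, a prior count of 2, a fit of only the libraries compared, each library left out, and the filter dropped or raised to 10 counts in all libraries. The fits were checked on simulated counts. Exonic lengths and promoters came from the deposited table and RefSeq. Tead1 and Tead4 had no promoter entry.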

Additional observations from a re-analysis of the deposited data

Results flagged for a closer look

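For 8 members the SX-682 change differed among the 3 lines in the F-test of the interaction (edgeR, adjusted over all genes tested). The spread between the highest and the lowest of the 3 log2 fold changes was 1.28 for Amotl2 (adjusted p = 4.9e-18), 1.04 for Tead1 (5.9e-16), 1.09 for Lats2 (8.7e-15) and 0.71 for Tead3 (1.1e-07). It was 0.28 for Yap1 (8.5e-07), 0.22 for Tead4 (0.0034) and 0.36 for Tead2 (0.007). For Ankrd1 the fitted values spread over 4.11 (0.0011). This spread rests on 3 untreated counts in B16F0 and moves with the prior count and with single libraries, the difference between the changes in B16F10 and B16F0 being -7.77 without replicate 2 of untreated B16F0, so no size is read from it. Of all genes tested, 47.4% passed the same test.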

How the results depend on the processing

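Of the members' log2 fold changes read under other settings with all libraries, 694 kept their direction and side of the threshold, 11 lost the call, 1 gained it and 4 turned sign. With 1 library left out calls were lost as well, and 13 values turned sign. Not all of the 694 could have moved. The threshold of 0.01 used the main fit again, so it could turn no sign and only lose calls. Most of the 11 lost calls came from it. A prior count of 2 changes the fitted values and not the p-values, so it could not move a call. Every turned sign was that of a difference that had not passed. Lats1 between untreated B16F10 and Melan-A went to -0.0210 with RLE scaling, -0.0211 with DESeq2 and -0.0563 with at least 10 counts in every library, and the difference of the Tead4 changes of B16F0 and Melan-A to -0.0134 without a filter. With 1 library left out, values ranged from -0.0236 to 0.0551 for this Lats1 difference, from -0.0377 to 0.0250 for this Tead4 difference, from -0.00660 to 0.0215 for Tead3 in Melan-A, from -0.0675 to 0.416 for the difference of the Tead2 changes of B16F0 and Melan-A, and from -0.0589 to 0.0445 for that of the Lats1 changes of B16F10 and B16F0. At a threshold of 0.01, 1 member rose in Melan-A and 1 fell in B16F0, and DESeq2 also found 1 member lower in B16F0. Regulators that rose in Melan-A numbered 2 with at least 10 counts in every library and with a separate fit. With 1 library left out, the members that rose in Melan-A numbered 1 to 2, those that fell in B16F0 1 to 2, those lower in untreated B16F10 than in B16F0 0 to 1, and the targets that fell in B16F0 2 to 4. The cause of these shifts was not tested. With the replicate block, the members that rose and fell numbered 2 and 5 in Melan-A, 7 and 2 in B16F0 and 4 and 4 in B16F10, as without it. Ankrd1 does not reach 10 counts in every library and has no value under that filter. Depth limits Ankrd1 in B16F0 and Tead2 in Melan-A.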
